A study of Homo sapiens with 8 samples.

Results

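The AP-1 and EGR immediate early factors are transcription factors whose genes can be switched on within minutes of a stimulus. The 10 genes described here are FOS, FOSB, FOSL1, FOSL2, JUN, JUNB, JUND, ATF3, EGR1 and EGR3, chosen by name and looked up among the 58395 genes of the count table. They were chosen with earlier results of these data known. All 10 were found, and 9 of them were among the 15637 genes with enough reads to be tested. RNA sequencing was done on AB8, a human line derived from podocytes, the filtration cells of the kidney glomerulus. The cells carried pIND21_hCrb2+GFP_S267A, from which doxycycline switches on human CRB2, here with GFP and S267A. CRB2 spans the membrane and belongs to the Crumbs complex of apical polarity. The 4 non-induced libraries had no doxycycline, the 4 induced libraries came from cells given it for 48 h, and both groups carried the construct and were at passage 3 to 8 after modification. Cells that received the drug but lacked the construct were not analysed here, so the drug, raised CRB2, GFP and S267A cannot be told apart.

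AP-1 is a dimer of a JUN protein with a FOS, JUN or ATF protein, joined through leucine zippers, and it binds short DNA sites near genes of growth, matrix and stress. FOS, FOSB, EGR1 and EGR3 are textbook immediate early genes, induced through SRF and ternary complex factors downstream of MAP kinases, and their mRNAs are short-lived. FOSL1 and FOSL2 lack the strong activation domain of FOS and FOSB and are often present in growing cells for longer. A difference measured at 48 h is a difference in standing mRNA level and does not show an early burst.

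Libraries held 16829454 to 23081616 counted reads, and 23636 to 24545 genes had a read. CRB2 checked the labels: it was 20.6 ± 8.46 CPM (counts scaled to library size, mean ± SD, n = 4) without doxycycline and 3761 ± 1361 CPM with it, a log2 change of 7.51 (SE 0.52, edgeR adjusted p = 0.0016). The induced library numbered 1 had 1731 CPM of CRB2, against 4246 to 4593 CPM in the others. Both libraries numbered 1 stood apart: across genes they correlated with the other 6 at 0.942 to 0.958, and with each other at 0.987. The other 6 correlated among themselves at 0.986 to 0.997. Of the podocyte markers, the slit diaphragm gene NPHS1 was near 0, with 3 reads in all, while WT1 was at 3.18 ± 1.68 and 2.54 ± 1.47 CPM and SYNPO at 39.5 ± 13.4 and 41.3 ± 10.3 CPM without and with doxycycline.

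Promoter sequence is shown first for JUNB and FOS, 2 genes that changed with opposite sign in a fit below, and for ATF3 and EGR1, which had high values in the same libraries. Some of the sites through which such genes are commonly induced lie close to their starts. RefSeq promoters (GRCh38.p14, read in the 250 bases before the start) were given for 8 of the 10 genes and not for FOSL1 or EGR3. Each line runs 5′ to 3′ on the plus strand, cut where an annotated exon begins, and capitals mark every match to the motifs searched. The JUNB stretch is chr19:12791236-12791485, that of FOS is chr14:75278578-75278773, that of ATF3 is chr1:212565157-212565333, before the first of the 2 starts given for it, and that of EGR1 is chr5:138465229-138465478.
JUNB: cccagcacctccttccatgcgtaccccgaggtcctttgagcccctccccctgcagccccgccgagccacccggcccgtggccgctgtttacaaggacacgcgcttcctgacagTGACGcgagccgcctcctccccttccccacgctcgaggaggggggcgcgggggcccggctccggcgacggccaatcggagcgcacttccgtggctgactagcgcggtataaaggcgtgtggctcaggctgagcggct
FOS: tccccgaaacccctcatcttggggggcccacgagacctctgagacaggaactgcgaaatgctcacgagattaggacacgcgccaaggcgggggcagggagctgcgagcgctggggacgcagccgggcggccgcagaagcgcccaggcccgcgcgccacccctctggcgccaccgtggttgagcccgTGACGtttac
ATF3: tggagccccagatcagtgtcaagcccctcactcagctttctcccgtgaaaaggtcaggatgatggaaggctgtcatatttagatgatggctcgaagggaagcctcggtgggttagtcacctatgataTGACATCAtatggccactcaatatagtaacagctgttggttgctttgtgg
EGR1: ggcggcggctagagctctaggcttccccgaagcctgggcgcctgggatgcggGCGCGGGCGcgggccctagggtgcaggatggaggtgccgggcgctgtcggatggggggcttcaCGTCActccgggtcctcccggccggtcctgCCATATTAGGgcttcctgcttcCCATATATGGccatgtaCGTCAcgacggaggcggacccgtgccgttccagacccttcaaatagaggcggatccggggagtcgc
Both strands were searched, overlaps allowed, for the CRE core TGACG, the full CRE TGACGTCA, which contains it, the related TGACATCA, the AP-1 site TGANTCA, the EGR site GCGNGGGCG and the SRF CArG box. TGACG was in 7 of the 8 promoters, among them JUNB at 137 to 133 bases and FOS at 64 to 60 bases upstream, and in 21.2% of all 35116 promoters. TGACATCA was in 2 of 8, ATF3 at 123 to 116 and JUN at 67 to 60 bases upstream, and in 2.37% of all promoters. Within the 250 bases read, the CArG box was in EGR1 alone of the 8, at 105 to 96 and 83 to 74 bases upstream. It was in 1.16% of all promoters. EGR1 was also the only one with the EGR site, at 198 to 190 bases upstream (8.41% of all promoters), and JUND the only one with TGACGTCA, at 200 to 193 bases upstream (1.65%). TGANTCA was in 0 of 8 and in 6.57% of all promoters. A match describes the letters only. Bases further upstream were not searched, so a site missing here, such as a CArG box in FOS, may lie beyond the 250 bases. Only the starts given were read, so a site of ATF3 before any other start would also be missed.

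The most abundant mRNAs among these factors were FOSL1 and JUND. Levels of different genes were compared as CPM per kb of exon, where FOSL1 was highest in all 8 libraries, at 145.5 to 196 CPM per kb. JUND came next at 71.8 to 141 CPM per kb. JUN, at 43.7 to 62.5, and FOSL2, at 40.2 to 54.3 CPM per kb, overlapped across libraries, although JUN was above FOSL2 in 8 of 8 libraries. EGR1, at 13.4 to 55.3, JUNB, at 15.6 to 42.8, and ATF3, at 6.0 to 39.6 CPM per kb, overlapped widely, and EGR1 was above JUNB in 4 of 8. FOSB, FOS and EGR3, classic immediate early genes like EGR1, lay at the bottom. FOSB was at 0.991 to 1.66, FOS at 0.111 to 1.26 and EGR3 at 0.0090 to 0.048 CPM per kb. FOSL1 was 127 to 1450-fold above FOS on this scale.

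**Figure D1:**
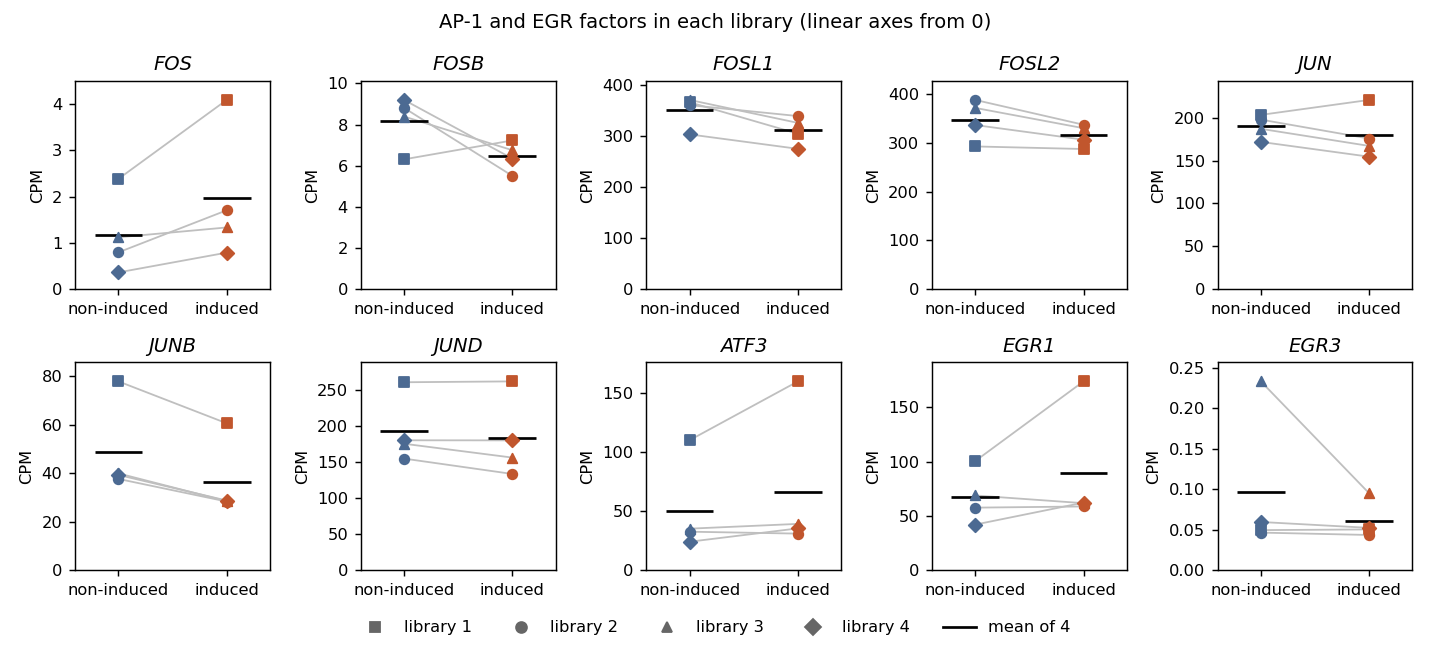
Each panel shows 1 gene, with CPM on the y axis from 0 and 1 point for each library, non-induced on the left and induced on the right, with grey lines joining libraries of the same number and a black bar at the mean of each group. JUNB, ATF3 and EGR1 show the libraries numbered 1 above the rest of both groups, while in FOSL1 the 4 induced libraries, 275 to 339 CPM, partly overlap the non-induced ones.

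None of the 9 tested genes passed the threshold (Benjamini-Hochberg adjusted p of 0.05) in the edgeR comparison of induced with non-induced libraries, and the groups overlapped for all 9. Of all genes tested, 0.0384% passed in that comparison and 7.04% had groups that did not overlap. DESeq2 gave 8 of the 9 an adjusted p, all but FOS, and called 0 of these and 1.86% of the genes it gave one. FOSB alone had an unadjusted edgeR p under 0.05, namely 0.0442, and 9.38% of all genes tested had one. The replicate numbers are shared between the groups, and same-numbered libraries deviated together, so a second edgeR fit, blocked on that number, sets each induced library against its own non-induced partner. There JUNB, FOSL1 and FOSL2 fell and FOS rose: 4 of 9 passed, against 13.8% of all genes tested (7.51% higher and 6.29% lower). The factors were chosen with earlier results of these data known, so these counts are descriptions. DESeq2 with the block called JUNB, FOSL1 and FOSL2, 3 of the 8 it gave an adjusted p, against 9.0% of all such genes. FOSL2 passed there only just, at a DESeq2 adjusted p of 0.0499. Direction was the same in all 4 pairs for the same 4 genes, as for 35.6% of all genes tested (18.6% higher and 17.0% lower). The median log2 change of the 9 with the block was -0.09, beside 0.00028 for all genes tested. In bulk RNA, fewer cells of a type and less RNA per cell cannot be told apart.

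**Figure D2:**
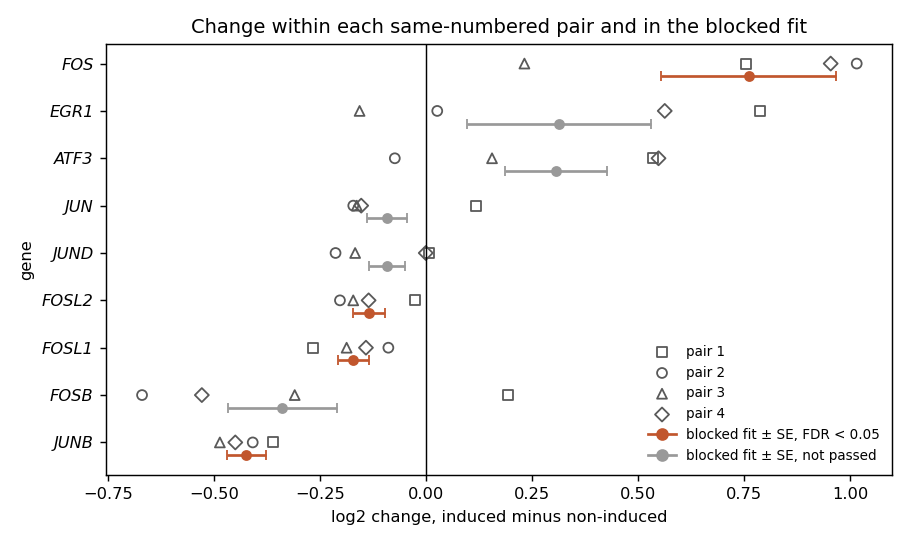
Open symbols give the log2 ratio of induced to non-induced CPM (x axis) in each same-numbered pair of libraries, for each of the 9 tested genes on the y axis. Filled points with bars give the change and SE from the fit with the replicate block, in orange where it passed the threshold. All 4 points of JUNB, FOSL1 and FOSL2 lie below 0 and all 4 of FOS above it, and the other 5 genes have points on both sides.

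Among the JUN proteins, JUNB, which is often described as a brake on JUN in proliferating cells, had the smallest p of the 9 tested genes with the block. JUNB (ENSG00000171223, GRCh38 chromosome 19, 12791496 to 12793315, plus strand) stood at 77.9, 37.7, 40.0 and 39.4 CPM in non-induced libraries 1 to 4. With doxycycline it stood at 60.7, 28.4, 28.5 and 28.8 CPM. In both groups library 1 was far above the other 3, and the induced libraries 2 to 4 all lay below the non-induced ones. The pairs gave ratios of 0.778, 0.753, 0.713 and 0.732. The log2 change was -0.41 (SE 0.33, adjusted p = 0.791) without the block, where it moved to -0.09 without non-induced library 1 and to -0.77 without induced library 1, and -0.42 (SE 0.05, adjusted p = 6.90e-05) with it, a fall by 25.4%. Leaving out both libraries numbered 1, it was 39.0 ± 1.18 against 28.6 ± 0.204 CPM (SD, n = 3), and edgeR without the block gave -0.45 (SE 0.06, adjusted p = 0.0018), a threshold that 3.44% of genes tested passed in that fit. JUNB passed in all 11 fits with the block, at adjusted p of 6.11e-14 to 9.38e-04. Its 1820 bases lie wholly within HOOK2 on the opposite strand, 259 of them in HOOK2 exons, and HOOK2 itself was at 25.1 ± 5.15 and 23.9 ± 3.98 CPM (block adjusted p = 0.558). Whether reads were counted by strand is not given in the sources used here.

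JUN, the founding AP-1 subunit, and JUND, its more constantly expressed relative, did not pass in either fit. JUN (ENSG00000177606, chromosome 1, 58780788 to 58784327, minus strand) was at 204, 198, 187 and 172 CPM without doxycycline and 221, 176, 167 and 155 CPM with it. It was lower in pairs 2 to 4 and higher in pair 1, with a block log2 change of -0.09 (SE 0.05, adjusted p = 0.236). Without pair 1 the block gave -0.17 (SE 0.04, adjusted p = 0.0115), in a fit where 10.9% of genes tested passed. JUND (ENSG00000130522, chromosome 19, 18279760 to 18281622, minus strand) was at 261, 155, 176 and 181 CPM without and 262, 134, 157 and 180 CPM with doxycycline, so the groups covered nearly the same range. Its block log2 change was -0.09 (SE 0.04, adjusted p = 0.169), and it passed in 0 of 11 fits with the block.

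Of the FOS relatives, FOSL1, also called FRA-1, fell by a small amount in every pair. FOSL1 (ENSG00000175592, chromosome 11, 65892049 to 65900573, minus strand) was at 366, 360, 370 and 303 CPM without doxycycline and 304, 339, 325 and 275 CPM with it. Library 4 was the lowest of each group, and the groups overlapped. The log2 change was -0.17 in both fits, with SE 0.09 (adjusted p = 0.605) without the block and SE 0.04 (adjusted p = 0.0080) with it, a fall by 11.2%. FOSL1 passed in all 11 fits with the block, at adjusted p of 1.82e-04 to 0.0463, but without the block and without the libraries numbered 1 it did not (adjusted p = 0.5004).

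FOSL2, or FRA-2, moved the same way with less margin. FOSL2 (ENSG00000075426, chromosome 2, 28392448 to 28417312, plus strand) was at 293, 389, 372 and 337 CPM without and 288, 338, 331 and 307 CPM with doxycycline. Both libraries numbered 1 were the lowest of their group and differed from each other least, with a ratio of 0.982. The block log2 change was -0.13 (SE 0.04, adjusted p = 0.0276), a fall by 8.89%, and the call was lost without pair 2 (adjusted p = 0.113), pair 3 (0.139) or pair 4 (0.0848). Without the block it was -0.14 (SE 0.09, adjusted p = 0.730).

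FOS, the best known immediate early gene, was barely present. FOS (ENSG00000170345, chromosome 14, 75278774 to 75282230, plus strand) had 48, 17, 24 and 6 reads in non-induced and 81, 39, 28 and 15 reads in induced libraries 1 to 4. These counts gave 2.38, 0.793, 1.12 and 0.358 CPM without and 4.09, 1.70, 1.33 and 0.787 CPM with doxycycline. Library 1 was the highest of both groups and the groups overlapped, while every induced library was above its partner, by 1.72, 2.15, 1.19 and 2.20-fold. The log2 change was 0.75 (SE 0.62, adjusted p = 0.799) without the block and 0.76 (SE 0.21, adjusted p = 0.0257) with it. Without the block it moved to 1.35 without non-induced library 1 and to 0.12 without induced library 1. The call was lost without pair 1 (adjusted p = 0.118), pair 2 (0.0811) or pair 4 (0.0778). DESeq2 with the block gave no adjusted p for FOS, and an unadjusted p of 0.0374.

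FOSB, the closest relative of FOS, lay the other way in most libraries. FOSB (ENSG00000125740, chromosome 19, 45467995 to 45475179, plus strand) was at 6.31, 8.81, 8.39 and 9.20 CPM without and 7.23, 5.51, 6.75 and 6.35 CPM with doxycycline. Pairs 2 to 4 were lower when induced and pair 1 was higher. The log2 change was -0.34 in both fits, with adjusted p = 0.517 (SE 0.15) without and 0.100 (SE 0.13) with the block. Without the libraries numbered 1 it was -0.51 (SE 0.12, edgeR adjusted p = 0.0351 without the block, 0.0111 with it). FOSB lies within an intron of ERCC1, a DNA repair gene on the opposite strand, with 0 of its bases in ERCC1 exons. ERCC1 was at 73.9 ± 8.07 and 67.0 ± 5.53 CPM (block log2 -0.14, SE 0.04, adjusted p = 0.0418), and the part of its reads in the FOSB count was not tested.

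Within the FOS family the make-up was nearly the same in both groups. FOSL1 made up 78.6 ± 2.35% of the family's CPM per kb without and 78.2 ± 1.04% with doxycycline (SD, n = 4). FOSL2 made up 20.6 ± 2.34% and 21.0 ± 1.20%. Little was left for the other two: FOSB was 0.630 ± 0.128% and 0.557 ± 0.0889%, and FOS 0.150 ± 0.113% and 0.291 ± 0.223%. In the JUN family JUND held 56.0 ± 2.87% and 57.8 ± 4.07%, and JUN 29.8 ± 4.62% and 30.7 ± 4.43%. JUNB held 14.2 ± 2.42% without and 11.6 ± 1.76% with doxycycline, with ranges of 13.0 to 17.8% and 10.1 to 14.1%. The group ranges of every share overlapped. Within same-numbered pairs the JUNB share was lower in 4 of 4, and the FOS and JUND shares were higher in 4 of 4. Shares within a family depend on one another: a lower JUNB share leaves more for JUN and JUND. The CPM of JUND itself had induced to non-induced ratios of 1.005, 0.863, 0.891 and 0.9998 in pairs 1 to 4. The shares rest on the merged exon lengths and are descriptions with no test.

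**Figure D3:**
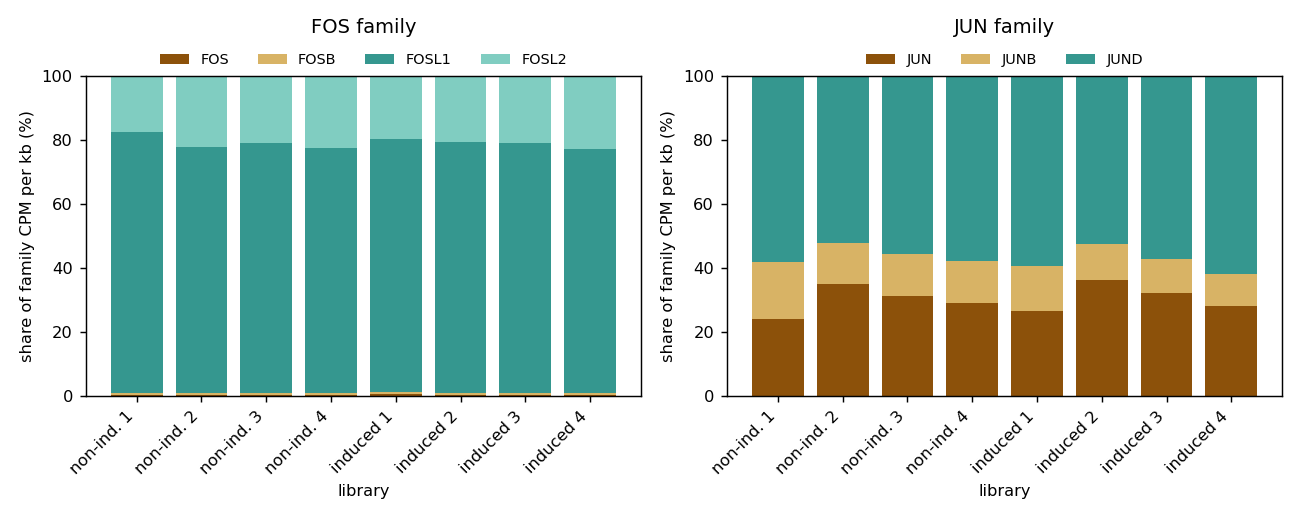
Stacked bars give the percent of the summed CPM per kb (y axis, 0 to 100) taken by each FOS family gene (left) and each JUN family gene (right) in each of the 8 libraries on the x axis. FOSL1 fills 76.7 to 81.9% of the FOS family in the non-induced libraries, and FOSB and FOS are thin bands at the base.

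ATF3, a stress-induced partner of JUN proteins, and EGR1, a zinc finger immediate early factor, had high library 1 values and did not pass in either fit. ATF3 (ENSG00000162772, chromosome 1, 212565334 to 212620777, plus strand) was at 110, 32.7, 35.3 and 24.3 CPM without and 160, 31.1, 39.3 and 35.5 CPM with doxycycline. Leaving library 1 aside, the groups lay between 24.3 and 39.3 CPM and overlapped. Its log2 change was 0.39 (SE 0.66, adjusted p = 0.928) without and 0.31 (SE 0.12, adjusted p = 0.178) with the block, and it passed with the block when pair 2 was left out (0.0041), with no filter on low counts (3.79e-04) or with non-robust estimation (0.0404). EGR1 (ENSG00000120738, chromosome 5, 138465490 to 138469315, plus strand) was at 101, 57.7, 68.9 and 42.1 CPM without and 174, 58.8, 61.8 and 62.3 CPM with doxycycline. Pair 3 was lower when induced and the other 3 higher, and EGR1 passed in 0 of 11 fits with the block (log2 0.31, SE 0.22, adjusted p = 0.459). EGR3 (ENSG00000179388, chromosome 8, 22687659 to 22693302, minus strand) had 1, 1, 5 and 1 reads without and 1, 1, 2 and 1 reads with doxycycline. It was too low to test, and no fold is given.

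The libraries numbered 1 differed from the rest in several of these genes, and the larger differences went the same way in both groups. ATF3 in library 1 was 3.58-fold the mean of libraries 2 to 4 without doxycycline and 4.52-fold with it. FOS was 3.15 and 3.21-fold, JUNB 2.00 and 2.12-fold, EGR1 1.79 and 2.85-fold, and JUND 1.53 and 1.67-fold. These 5 of the 9 tested genes were over 1.5-fold higher in library 1 in both groups, as were 5.04% of all genes tested. FOSL1 was at 1.06 and 0.972-fold and FOSL2 at 0.801 and 0.885-fold, within 1.5-fold either way. CRB2 in library 1 was at 0.336 and 0.390 of the other libraries. The labels do not say what sets the libraries numbered 1 apart, and the part of the lower CRB2 level in these values was not tested.

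**Figure D4:**
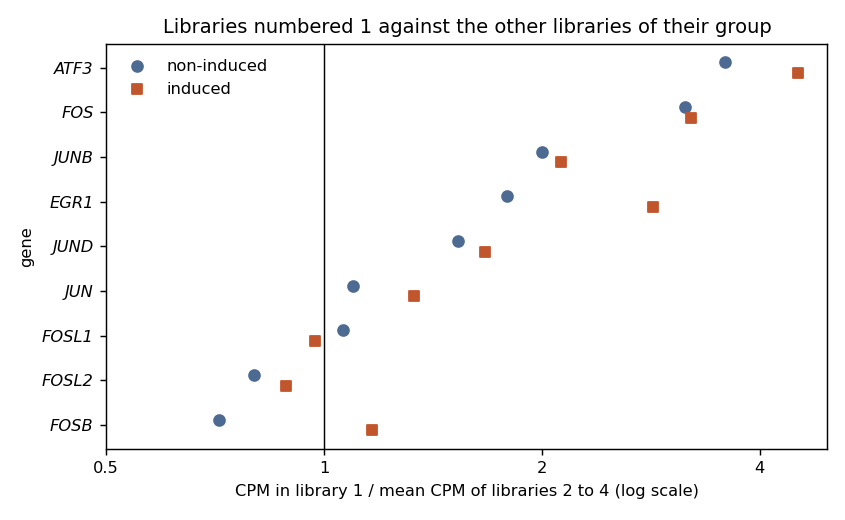
Points give, on a log axis, the CPM of library 1 divided by the mean CPM of libraries 2 to 4 in the same group, for each of the 9 tested genes on the y axis, with a line at 1 marking equality. FOS and ATF3 lie above 3 in both groups, and FOSL1 lies at 1.06 and 0.972.

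How the factors moved relative to one another was described over the 6 libraries numbered 2 to 4, by Pearson r of log2 CPM. FOSL2 and JUN were closest (r = 0.989), followed by FOSB and JUNB (r = 0.930), FOSL1 and JUN (r = 0.903), ATF3 and EGR1 (r = 0.898) and FOSL1 and FOSL2 (r = 0.894). FOS followed EGR1 (r = 0.761) and ATF3 (r = 0.690) and ran opposite to FOSB (r = -0.71) and JUND (r = -0.72). Of the 36 pairs of factors, 12 changed sign when the libraries numbered 1 were included: FOSL2 and JUN then stood at r = -0.15. With 6 libraries that share groups and replicate numbers these values are descriptions.

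Each factor was also set beside the 11347 genes measured well enough for such a likeness, and the 2 most alike were taken, over the same 6 libraries. A search of so many genes over 6 libraries finds a high r for almost any profile, so the values are descriptions. The 8 libraries given beside them include these 6. JUNB was most like GATA6, a zinc finger transcription factor (r = 0.998, and the same over all 8 libraries), and SAMD14 (r = 0.997 over 6 libraries and 0.308 over 8). GATA6 itself fell with the block (log2 -0.31, adjusted p = 0.017). It was picked for likeness to JUNB over libraries of both groups, so this fall is no separate result. FOSL2 was most like GPR157 (r = 0.998, and 0.991 over 8 libraries) and DPF1 (r = 0.997 and 0.831). JUND was most like PDLIM1, an actin-associated protein (r = 0.992 and 0.991), and MXRA7 (r = 0.985 and -0.65). For the other factors the likeness was less steady. FOSL1 was most like EMP1 (r = 0.993 and 0.188) and the ETS factor FLI1 (r = 0.993 and 0.0056), and JUN most like DPYSL2 (r = 0.994 and -0.36) and the activin receptor ACVR2B (r = 0.992 and 0.900). FOSB was most like the matrix peroxidase PXDN (r = 0.996 and 0.513) and the small GTPase RHOC (r = 0.993 and 0.631), and FOS most like the cytolinker plectin, PLEC (r = 0.993 and -0.47), and SCPEP1 (r = 0.989 and 0.843). ATF3 was most like the pseudogene DAZAP2P1 (r = 0.988 and 0.403) and KLHL15 (r = 0.983 and 0.011), and EGR1 most like QRICH1 (r = 0.994 and -0.69) and TMEM80 (r = 0.988 and 0.691).

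The genes around these factors were taken from 7 lists of 104 distinct genes, 94 of them tested. The lists were also chosen with earlier results of these data known. Without the block edgeR called 0 of the 94, with 23 at an unadjusted p under 0.05, beside 9.38% of all genes tested. DESeq2 without the block gave 88 of them an adjusted p and called 10, beside 1.86% of all genes with one. With the block edgeR called 36 of them, 10 higher and 26 lower, against 7.51% and 6.29% of all genes tested. The calls below are from the fit with the block.

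Upstream, 16 of 16 genes of SRF, its cofactors, ternary complex factors, MAP kinases and RPS6KA kinases were tested. Of these, 1 rose and 1 fell, beside 7.51% and 6.29% of all genes tested. Their median log2 change was 0.0037, beside 0.00028 for all genes tested. MRTFB, an actin-regulated SRF cofactor, rose from 48.5 ± 3.06 to 58.2 ± 2.98 CPM (log2 0.26, SE 0.05, adjusted p = 0.0043), with groups that did not overlap. ELK3, a ternary complex factor, fell from 126 ± 15.9 to 107 ± 17.8 CPM (log2 -0.24, SE 0.04, adjusted p = 0.0014). SRF itself was at 77.4 ± 8.00 and 77.6 ± 6.51 CPM (adjusted p = 0.956). Of 6 factors that bind AU-rich elements and set the life of such mRNAs, none passed (0 with an unadjusted p under 0.05 without the block and 0 by DESeq2 without it), and the 2 with the smallest p without the block, ZFP36L2 (log2 0.18, adjusted p = 0.159) and HNRNPD (log2 -0.07, adjusted p = 0.228), lay on opposite sides.

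Among 12 tested bZIP factors that pair or compete with AP-1, 2 fell and 0 rose, beside 6.29% and 7.51% of all genes tested. Their median log2 change was -0.0011. MAFF, a small MAF protein, fell from 59.0 ± 6.24 to 45.4 ± 4.44 CPM (log2 -0.37, SE 0.04, adjusted p = 1.39e-04), and its groups did not overlap. BATF3, which dimerizes with JUN proteins, fell from 5.87 ± 1.51 to 3.88 ± 1.01 CPM (log2 -0.59, SE 0.12, adjusted p = 0.0063), and the call was lost without pair 4 (0.0508). Of the remaining EGR genes and their NAB corepressors, only NAB1 and NAB2 could be tested. NAB1 fell from 90.9 ± 5.18 to 78.7 ± 5.17 CPM (log2 -0.21, SE 0.05, adjusted p = 0.0109), and NAB2 was at 30.4 ± 1.70 and 27.5 ± 1.77 CPM (log2 -0.15, adjusted p = 0.129).

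Other immediate early genes went both ways. Of 28 tested, 5 rose and 6 fell, beside 7.51% and 6.29% of all genes tested, with a median log2 change of 0.0070. KLF4, a zinc finger factor, rose from 24.2 ± 10.8 to 35.5 ± 18.3 CPM (log2 0.53, SE 0.06, adjusted p = 6.90e-05), higher in 4 of 4 pairs. IER5L rose from 7.5 ± 1.42 to 13.0 ± 2.44 CPM (log2 0.79, SE 0.11, adjusted p = 4.16e-04), with groups that did not overlap. HBEGF, a ligand of the EGF receptor, fell from 99.3 ± 38.0 to 71.0 ± 23.7 CPM (log2 -0.46, SE 0.05, adjusted p = 3.89e-05). KLF6, a relative of KLF4, fell from 265 ± 18.9 to 218 ± 18.5 CPM (log2 -0.28, SE 0.04, adjusted p = 2.29e-04), with groups that did not overlap. With DESeq2 and the block the list had 4 higher and 3 lower. With 1 pair left out it had 4 to 5 higher, and 8, 5, 3 and 2 lower without pairs 1 to 4.

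Genes described in the literature as AP-1 targets, a list chosen with earlier results of these data known, were mostly lower in the induced libraries. Of 19 tested, 11 fell and 1 rose, beside 6.29% and 7.51% of all genes tested. The median log2 change was -0.45, and 13 were lower in all 4 pairs, as were 17.0% of all genes tested. HMGA1, an architectural chromatin protein, fell from 1847 ± 158 to 1307 ± 124 CPM (log2 -0.50, SE 0.03, adjusted p = 1.91e-06), with groups that did not overlap. PLAUR, the urokinase receptor, fell from 128 ± 17.8 to 93.7 ± 14.5 CPM (log2 -0.45, SE 0.05, adjusted p = 4.52e-05). The cytokine LIF fell from 191 ± 11.8 to 151 ± 13.2 CPM (log2 -0.33, SE 0.04, adjusted p = 1.39e-04). The gene that rose, named here after its value was seen, was the collagenase MMP13. MMP13 was at 0.714 ± 0.985 CPM without and 1.71 ± 1.99 CPM with doxycycline, an SD above the mean in each group. Leaving out each pair in turn left 8 to 12 lower and 0 to 1 higher, the 0 without pair 1. With DESeq2 and the block 12 fell and 0 rose.

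Genes described as EGR targets were a list also chosen with earlier results of these data known. Of the 11 tested, 5 fell and 3 rose, beside 6.29% and 7.51% of all genes tested. Their median log2 change was -0.31. With DESeq2 and the block 1 rose and 5 fell, and with 1 pair left out 1 to 3 rose (1 without pair 1 or pair 4) and 4 to 5 fell. FN1, fibronectin, fell from 4064 ± 652 to 3075 ± 428 CPM (log2 -0.40, SE 0.03, adjusted p = 7.81e-06). MMP14, a membrane-bound collagenase, fell from 341 ± 26.9 to 274 ± 31.6 CPM (log2 -0.32, SE 0.04, adjusted p = 1.27e-04), with groups that did not overlap. F3, tissue factor, fell from 89.4 ± 40.8 to 64.5 ± 28.4 CPM (log2 -0.45, SE 0.05, adjusted p = 1.51e-04), and was lowest in library 1 of both groups, at 29.7 and 24.5 CPM. FGF2, a growth factor, rose from 145 ± 18.3 to 192 ± 34.8 CPM (log2 0.40, SE 0.05, adjusted p = 1.26e-04), with groups that did not overlap. Target lists come from other cells, and whether any of these genes responds to the factors described was not tested.

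**Figure D5:**
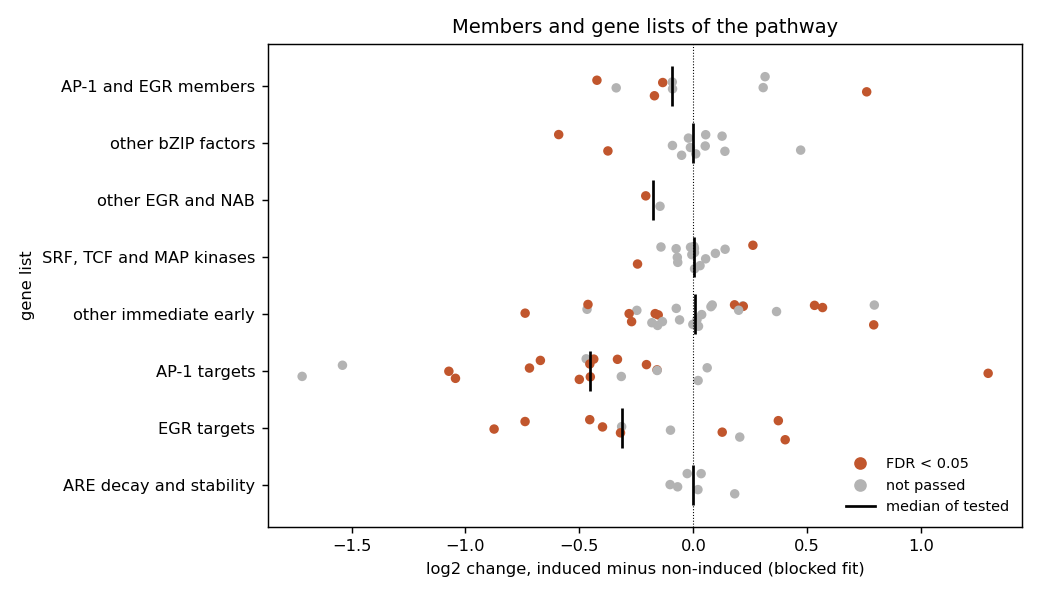
For the 10 factors and each gene list on the y axis, points show the log2 change of each tested gene from the fit with the replicate block (x axis), with a black bar at the median and orange points for genes past the threshold. AP-1 targets have a median of -0.45 and EGR targets one of -0.31, while the medians of the bZIP, upstream and other immediate early lists lie within 0.01 of 0.

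Markers of other cell types were checked beside these values. Over 5 endothelial markers the summed level was 0.777 to 1.45 CPM without and 0.713 to 1.26 CPM with doxycycline, with KDR at 0 reads. Over 6 leukocyte markers it was 3.58 to 4.15 and 2.38 to 3.32 CPM, with 1 read of PTPRC in all. Over 4 mesangial markers it was 12.7 to 15.5 and 14.1 to 21.8 CPM, with ITGA8 at 0 reads, and PDGFRB rose with the block, from 11.9 ± 0.814 to 15.2 ± 2.22 CPM (log2 0.34, adjusted p = 0.0299). Over 6 parietal or tubular markers it was 613 to 680 without and 408 to 572 CPM with doxycycline, with LRP2 and UMOD at 0 reads. With the block 2 of the 3 tested fell and 1 rose. Over 10 podocyte markers it was 1317 to 1554 and 1449 to 1516 CPM, and of the 7 tested 2 rose and 0 fell with the block. Of all genes tested, 7.51% rose and 6.29% fell in that fit. The part of the lower parietal or tubular sum and of the higher PDGFRB level in the JUNB, FOSL1 and target gene values was not tested.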

How the data were processed

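RNA was measured in 4 non-induced and 4 induced AB8 libraries, as single reads of 75 bases on a NextSeq 500 after NEBNext Ultra Directional library preparation, per the labels. The authors deposited whole-number read counts per Ensembl gene, used here as they stand. Per the submitters' processing notes the tools were bcl2fastq, Trimmomatic 0.38, HISAT2 2.1.0, HTSeq 0.11.1 and DESeq2 1.24.0, with the builds hg38 and GRCh38. Neither the annotation release nor the strand setting is given in the sources used here. A second, normalized table was not used. Of 58395 genes, 58275 matched GENCODE release 29, which gave symbols, positions and exon lengths.

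Genes were kept by filterByExpr (minimum count 10). Counts were scaled by TMM and compared with edgeR 4.0.16 under R 4.3.3 (quasi-likelihood test, robust, two-sided, Benjamini-Hochberg FDR 0.05 over all tested genes). SE is the log2 change divided by the square root of F. TMM-scaled totals were used for CPM, and a prior count of 2 for log2 CPM. A count of 0 allows up to 3 reads, or 0.13 to 0.178 CPM, for counting error only.

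The replicate numbers were checked for pairing. Across 11500 genes, deviations from group means of same-numbered libraries correlated at 0.911, 0.704, 0.707 and 0.648, while differently numbered libraries correlated at -0.775 to 0.667, those among numbers 2 to 4 at 0.349 to 0.667. Without the libraries numbered 1, same-numbered libraries correlated at 0.251, 0.336 and 0.387 and others at -0.343 to 0.137. The pairing comes from the shared numbers and these values, since the meaning of a number is not in the labels. Nor is it said whether each replicate was its own culture, so the p-values reflect only how these samples vary, which may be technical.

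The genes and lists were chosen with earlier results of these data known. Named genes were the 10 factors, CRB2, up to 4 called genes with the smallest p from each list (2 with the smallest p without the block where none was called), and for each factor with a mean of at least 1 CPM the 2 genes most like it, clone-based names left out, among genes above a mean log2 CPM of 2. Alternatives were DESeq2 1.42.0, RLE, upper-quartile and total scaling, no filter, a minimum count of 50, non-robust estimation, the block, and leaving out each library or number. The fits were tested on simulated data. A few list genes are not reported here. No sequence of EGR3 and no protein sequence is shown.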

Additional observations from a re-analysis of the deposited data

Results flagged for a closer look

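In each of 96 groups of 4 libraries, for 48 named genes, the highest or lowest library was compared with its nearest neighbour, and 17 stood apart by more than Dixon's 95% critical value for the gap as a share of the group's range. Chance gives about 1 in 20. Of the 17, 13 were libraries numbered 1. Among the factors, JUNB stood apart at 77.9 CPM in non-induced library 1 (nearest 40.0) and 60.7 CPM in induced library 1 (nearest 28.8). ATF3 stood apart at 110 CPM in non-induced library 1 (nearest 35.3) and 160 CPM in induced library 1 (nearest 39.3). EGR1 stood apart at 174 CPM in induced library 1 (nearest 62.3), and FOSL1 at 303 CPM in non-induced library 4 (nearest 360). EGR3 stood apart at 0.233 CPM in non-induced library 3 and 0.0951 CPM in induced library 3, values that rest on 5 and 2 reads.

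CRB2 was low in induced library 1, at 1731 CPM (nearest 4246). GATA6 was high in both libraries numbered 1, at 18.5 CPM (nearest 10.2) without and 15.2 CPM (nearest 8.18) with doxycycline. FGF2, at 244 CPM (nearest 180), and ACVR2B, at 16.2 CPM (nearest 10.97), were high in induced library 1. QRICH1 was low there, at 106 CPM (nearest 120). In non-induced library 1, BATF3 was low at 3.63 CPM (nearest 6.44) and PXDN at 82.9 CPM (nearest 134). DPF1 was low in induced library 4, at 4.77 CPM (nearest 5.76).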

How the results depend on the processing

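Without the block 6 genes of 15637 passed. RLE, upper-quartile scaling, a minimum count of 50 and non-robust estimation gave 6 as well and library totals 7, while no filter gave 37 and DESeq2 240. Leaving out 1 library or both of a number gave 0 to 543, the 543 without both libraries numbered 1. The replicate block gave 2159, and with it DESeq2 gave 1107, RLE 2150, upper quartile 2208, totals 2199, no filter 2711 and non-robust estimation 2067. With the block and 1 pair left out there were 1721, 1969, 1254 and 909, for pairs 1 to 4. Of the 10 factors, 0 passed without the block under each scaling, filter and tool run, and 0 to 2 with libraries left out (FOSB and JUNB, without the libraries numbered 1). With the replicate block 4 passed, also under RLE, upper quartile and totals, against 3 with DESeq2, 5 with non-robust estimation and 6 with no filter, and 2 to 5 with 1 pair left out. Of the other list genes, 0 passed without the block, 1 with totals, 2 with no filter, 10 with DESeq2 and 0 to 15 with libraries left out. The replicate block gave 36, also with totals, against 30 with DESeq2, 37 with RLE and with upper quartile, 41 with no filter and 40 with non-robust estimation, and 24 to 37 with 1 pair left out. Directions turned without the block: with 1 library left out, the log2 change of JUND ran from -0.30 to 0.10 (0.10 without non-induced library 1, 0.05 without induced library 2), that of ATF3 from -0.52 to 1.11 and that of EGR1 from -0.15 to 0.66, the last pair lowest without induced library 1 and highest without non-induced library 1. JUNB ran from -0.77 to -0.09 and FOS from 0.12 to 1.35 with 1 library left out. The cause was not tested. Depth limits FOS, at 6 to 81 reads, and EGR3, at 1 to 5.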
